A study of Drosophila melanogaster with 8 samples.

Results

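The Jonah genes encode secreted serine endopeptidases of the chymotrypsin type, and the 10 described here were taken by symbol from 14865 genes in the count table: Jon25Bi, Jon25Biii, Jon44E, Jon65Aiii, Jon65Aiv, Jon66Ci, Jon66Cii, Jon74E, Jon99Ci and Jon99Fi. Another 6 genes carry a Jonah symbol and were used for comparison, which makes 16 in all. The samples were whole flies of Drosophila melanogaster at day 8 of adulthood, kept on food with 8% yeast and 9% sugar. There were 5 control libraries, re-used from another series and named w1118 in the deposited sample sheet, and 3 libraries of the DHR39 genotype, named DHR393.48 there. DHR39 (gene symbol Hr39) is a nuclear receptor, and the question of the series concerns male fertility, although the labels give no sex. The labels describe neither the lesion of the allele nor the background of the stock, so the allele and other differences between the stocks cannot be told apart.

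Digestive proteases of this kind are made by enterocytes, the absorptive cells of the midgut, as inactive precursors. They are released into the gut lumen, where they cut dietary protein within the chain, and trypsins, carboxypeptidases and other enzymes act beside them. The symbols record the band of the polytene chromosome at which each gene lies. Genes of a shared band form a cluster of related copies, not all on the same strand. In RNA of whole flies, fewer midgut cells and less RNA per cell cannot be told apart.

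In DHR39 flies the RNA of 9 of the 10 genes fell and none rose, and the gene that did not pass the test was Jon66Ci. The falls ran from 2.10-fold for Jon65Aiii to 16.8-fold for Jon25Biii; the Jon25B genes had the deepest. Across all 13506 tested genes, 10.7% were lower and 6.58% were higher in DHR39 by the same test (edgeR quasi-likelihood, Benjamini-Hochberg adjusted p under 0.05, two-sided). That balance depends on the scale: 1444 genes were lower and 889 higher. Scaled by library totals alone, 1040 were lower and 1997 higher, and when totals left out the 50 most abundant genes, 1132 were lower and 1479 higher. The median log2 fold change, DHR39 minus control, was -2.12 over the 10 genes and -0.0044 over all tested genes. Every one of the 9 genes fell at least 2-fold, which 5.03% of tested genes did, and 5 fell at least 4-fold, against 2.37%. Both counts include Jon66Cii, a gene of few counts that was tested only through its higher control libraries and was not called with limma voom or without any one DHR39 library. In these 9 genes the highest DHR39 library lay below the lowest control, a pattern shown by 13.4% of tested genes. Scaling by library totals alone moved the median of all genes to 0.14 and that of the 10 genes to -1.98, and the same 9 genes stayed lower.

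Together the 10 genes took 0.471%, 0.552%, 0.610%, 0.640% and 0.422% of all counts in control replicates 1 to 5, and 0.161%, 0.232% and 0.143% in DHR39 replicates 1 to 3. The means were 0.539% ± 0.0918 (SD, n = 5) and 0.179% ± 0.0471 (SD, n = 3), and the groups did not overlap. Total counts per library ran from 16072497 to 19935574. CPM denotes counts relative to library size, scaled by TMM, a method that sets the scale from the bulk of genes, and library values are given in the order of replicate number. Changes on the log2 scale carry their SE, and group means carry the SD over 5 controls or 3 DHR39 libraries, control first.

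**Figure D1:**
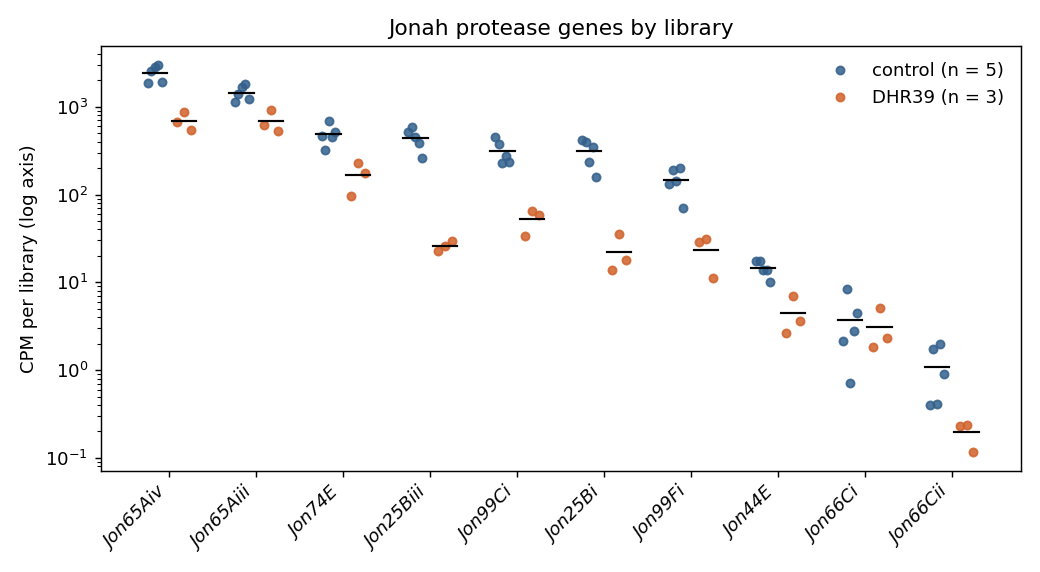
CPM of the 10 Jonah genes in each library on a log axis, with black lines at the group means, controls in blue (n = 5) and DHR39 in orange (n = 3). Genes are ordered by control mean, and the groups overlap for Jon66Ci alone.

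The 65A cluster on arm 3L held the most abundant members. Jon65Aiv (FBgn0250815, 3L:6039155-6040135, plus strand, BDGP6 assembly) stood at 1881, 2530, 2840, 2971 and 1908 CPM in controls and at 667, 871 and 539 CPM in DHR39. All 3 DHR39 libraries lay below every control by a wide margin. It fell by 1.81 ± 0.20 on the log2 scale (edgeR adjusted p = 5.65e-05).

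Jon65Aiii (FBgn0035665, 3L:6050757-6051690, plus strand) stood at 1140, 1383, 1690, 1799 and 1223 CPM in controls and at 626, 921 and 523 CPM in DHR39. The gap between the groups was narrow, between control replicate 1 and DHR39 replicate 2. It fell by 1.07 ± 0.20 (edgeR adjusted p = 0.0028), the smallest of the 9 falls.

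The ratio of this pair was read within each library, where the library's scale drops out. The log2 ratio of Jon65Aiii to Jon65Aiv counts was -0.72, -0.87, -0.75, -0.72 and -0.64 in controls and -0.091, 0.080 and -0.044 in DHR39. Jon65Aiv thus had the larger count in every control, while in DHR39 the pair stood almost level. The mean ratio differed by 0.72 ± 0.063 (SE; two-sided exact permutation p = 0.0179, the smallest that 56 divisions allow, and 0.0268 adjusted over 3 neighbour pairs). Both genes fell, and Jon65Aiv fell further. With only 2 DHR39 libraries 21 divisions allow an adjusted p of 0.0714 at best, so the call cannot be made without any one of them. Within the 3 pairs of libraries that share a replicate name, a comparison added after seeing the data, the ratio was higher in DHR39 by 0.66, 0.80 and 0.60, and 8 sign flips allow no exact p below 0.25.

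On the left arm of chromosome 2, the 25B cluster spans 5204 bp and showed the deepest falls. Jon25Biii (FBgn0031653, 2L:4949941-4950767, minus strand) stood at 511, 584, 455, 389 and 261 CPM in controls and at 22.9, 26.3 and 29.2 CPM in DHR39. The DHR39 libraries were close to each other, with a coefficient of variation of 12% against 28% in controls. This gene fell by 4.07 ± 0.25 (edgeR adjusted p = 9.37e-07), and only 59 of the 13506 tested genes had a lower log2 fold change.

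Jon25Bi (FBgn0020906, 2L:4954279-4955144, minus strand) stood at 413, 401, 236, 348 and 159 CPM in controls and at 13.6, 35.1 and 18.1 CPM in DHR39. DHR39 replicate 2 was the highest mutant library and still lay well below control replicate 5. The fall was 3.80 ± 0.39 on the log2 scale (edgeR adjusted p = 3.68e-05), with 68 tested genes lower. Against its neighbour Jon25Biii the log2 ratio differed between the groups by 0.19 ± 0.41 (SE; exact permutation p = 0.625, two-sided), and the groups overlapped. Within the 3 pairs of libraries it was higher in DHR39 by 0.20, 0.58 and 0.023.

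On 3R, Jon99Ci (FBgn0003358, 3R:29925226-29926189, minus strand) stood at 454, 373, 228, 278 and 236 CPM in controls and at 33.7, 64.4 and 58.6 CPM in DHR39. DHR39 replicate 1 was the lowest, as it was for its neighbours Jon99Cii and Jon99Ciii. Its fall of 2.59 ± 0.28 on the log2 scale passed the test (edgeR adjusted p = 4.9e-05).

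Jon99Fi (FBgn0039778, 3R:30488963-30489895, plus strand) stood at 133, 190, 141, 200 and 69.9 CPM in controls and at 29.0, 30.8 and 11.2 CPM in DHR39. Here DHR39 replicate 3 was lowest, and control replicate 5 was the lowest control. It fell by 2.63 ± 0.38 (edgeR adjusted p = 0.000492).

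Jon74E (FBgn0023197, 3L:17548077-17549127, minus strand) is the only Jonah gene at its band. It stood at 462, 321, 688, 451 and 513 CPM in controls and at 95.5, 228 and 174 CPM in DHR39. Control replicate 2 was the lowest control for this gene, which was not so for any other of the 10. It fell by 1.55 ± 0.28 (edgeR adjusted p = 0.00217).

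Jon44E (FBgn0001285, 2R:8691448-8692844, plus strand) is likewise the only Jonah gene at its band and was far less abundant. It had 17.6, 17.3, 13.7, 13.9 and 9.99 CPM in the controls against 2.65, 7.01 and 3.64 CPM in DHR39. The groups did not overlap, and it fell by 1.69 ± 0.29 (edgeR adjusted p = 0.00147). CG8586 overlaps it on the opposite strand at a higher level, 125 ± 22.2 CPM (SD, n = 5) in controls against 129 ± 13.0 CPM (SD, n = 3) in the mutant. The sources used here do not say if counting used strand, so the value of Jon44E is uncertain to that extent.

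The Jon66C pair on 3L had the lowest levels. Jon66Ci (FBgn0035886, 3L:8391540-8392377, plus strand) stood at 2.14, 8.49, 0.713, 2.80 and 4.46 CPM in controls and at 1.84, 5.17 and 2.35 CPM in DHR39. The range of the controls covered all DHR39 libraries. Its log2 fold change, -0.24 ± 0.59, did not pass the test (edgeR quasi-likelihood adjusted p = 0.85). The value was 0.32 when control replicate 2 was left out and -0.83 when DHR39 replicate 2 was left out. It was also 0.32 in the fit with paired replicates as a block. In that fit control replicates 1 and 2 have no partner and do not bear on the difference.

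Jon66Cii (FBgn0035887, 3L:8392820-8393649, minus strand) had 7, 30, 7, 38 and 15 counts in controls and 4, 5 and 2 counts in DHR39, or 1.09 ± 0.742 CPM (SD, n = 5) and 0.195 ± 0.0673 CPM (SD, n = 3). The groups did not overlap, and it fell by 2.43 ± 0.68 (edgeR adjusted p = 0.0289), on few counts. The call ended without any one of the DHR39 libraries (edgeR adjusted p = 0.0746, 0.0803 and 0.113 without replicates 1, 2 and 3) and with limma voom (0.0827), and without control replicate 2, 4 or 5 the gene was not tested. Within libraries the log2 ratio of Jon66Ci to Jon66Cii was 1.62 ± 0.931 in controls (SD, n = 5) and 3.73 ± 0.773 in DHR39 (SD, n = 3), a difference of 2.11 ± 0.61 (SE; two-sided exact permutation p = 0.0179, and 0.0268 adjusted over the 3 pairs). The same limits hold: no call is possible without any one DHR39 library, and within the 3 pairs of libraries the ratio was higher in DHR39 by 2.12, 3.84 and 1.73.

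**Figure D2:**
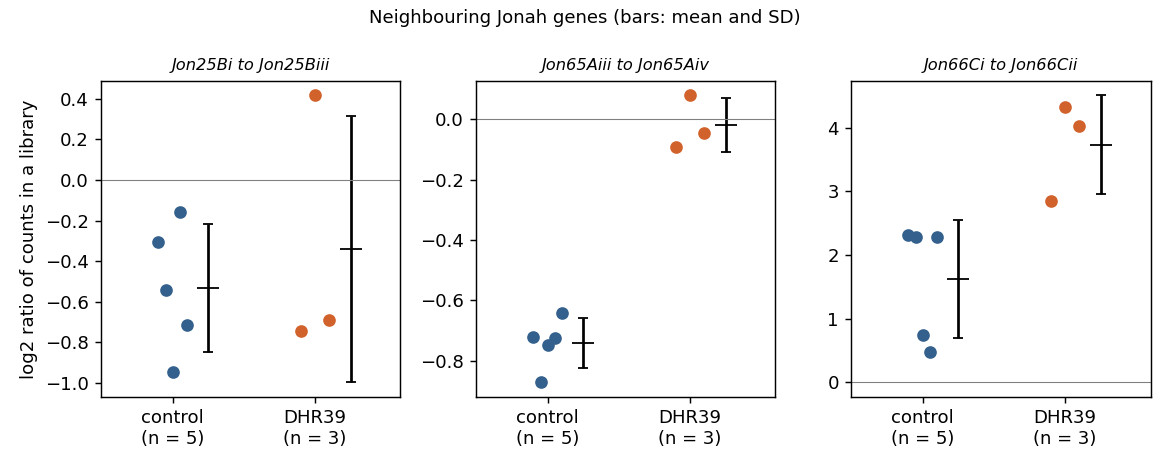
The log2 ratio of counts of neighbouring Jonah genes within each library, with 0.5 counts added to each gene; points are libraries, and black bars are the mean and SD. For Jon65Aiii to Jon65Aiv the 3 DHR39 libraries lie between -0.091 and 0.080, above the 5 controls at -0.87 to -0.64, while the groups overlap for Jon25Bi to Jon25Biii.

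Scaled to exon length, as CPM per kb, the 10 genes covered a wide range in controls. Jon65Aiv led at 2684 ± 565 (SD, n = 5 here and for the next levels), which placed it at rank 8 of 13412 tested genes with an exon length. Jon65Aiii followed at 1654 ± 329, at rank 21. Jon74E at 539 ± 147 and Jon25Biii at 532 ± 149 differed by less than their spread, as did Jon25Bi at 360 ± 127 and Jon99Ci at 346 ± 107. Jon99Fi stood at 157 ± 55.9, Jon44E at 10.4 ± 2.23, Jon66Ci at 4.44 ± 3.57 and Jon66Cii at 1.31 ± 0.894.

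In DHR39 the order differed. Jon65Aiii at 789 ± 236 and Jon65Aiv at 766 ± 185 CPM per kb (SD, n = 3) did not differ beyond their spread and held ranks 54 and 57. Jon74E, at 184 ± 73.7, remained next. Jon99Ci at 57.6 ± 18.0 had the higher mean beside Jon25Biii at 31.6 ± 3.80, which had been above it in controls, and Jon25Bi and Jon99Fi stood level, at 25.7 ± 13.1 and 25.4 ± 11.6. Jon25Biii thereby went from rank 181 to rank 3156, and Jon25Bi from rank 291 to rank 3780.

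**Figure D3:**
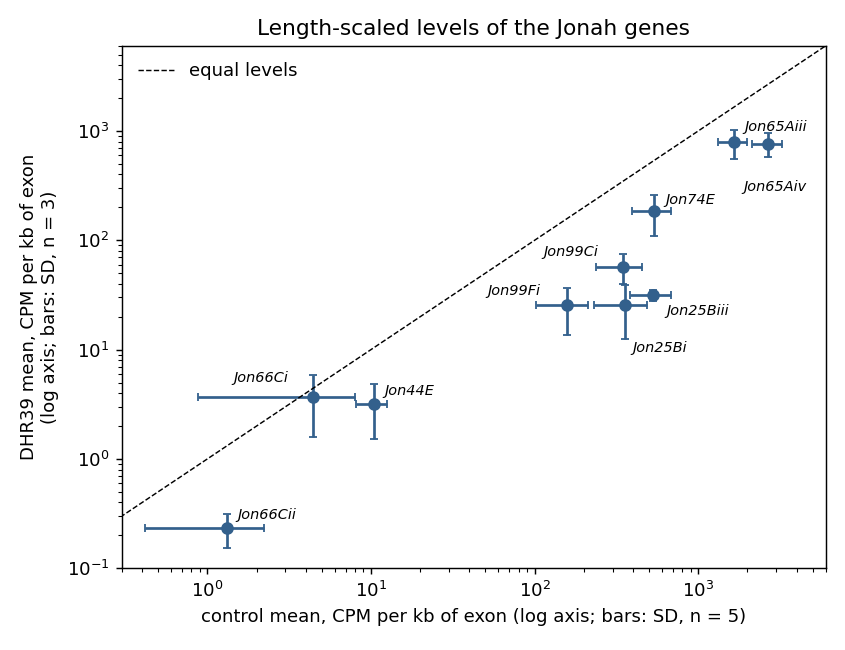
Mean level of each Jonah gene per kb of exon in DHR39 (vertical, SD, n = 3) against controls (horizontal, SD, n = 5), both on log axes, with a dashed line at equal levels. The 25B genes lie farthest below the line, and Jon66Ci, at 4.44 in controls and 3.72 in DHR39, lies closest to it.

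The make-up of the pool shifted accordingly. As a share of the counts of the 10 genes, Jon65Aiii went from 25.8% ± 2.41 in controls (SD, n = 5) to 40.8% ± 2.05 in DHR39 (SD, n = 3), and Jon65Aiv from 43.1% ± 3.33 to 41.4% ± 2.86, within its spread. Jon25Biii went from 7.89% ± 2.10 to 1.63% ± 0.481 and Jon25Bi from 5.58% ± 2.00 to 1.28% ± 0.347. These shares sum to a whole in each library, so a larger share for Jon65Aiii is no higher level.

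Libraries of a group were not alike across the genes. Among controls, replicate 5 was lowest for 4 of the 10 genes and highest for none, and replicate 4 was highest for 4. Among DHR39 libraries, replicate 2 was highest for 9 of the 10, all but Jon25Biii, and replicate 1 was lowest for 6. The median of the 10 genes relative to the control mean was -2.28, -1.62 and -2.25 on the log2 scale in DHR39 replicates 1 to 3, and between -0.34 and 0.38 in the controls.

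Of the 6 other genes with a Jonah symbol, 5 fell and Jon65Aii did not pass the test, with a median log2 fold change of -2.93. Jon25Bii, which lies between Jon25Biii and Jon25Bi, fell by 5.86 ± 0.51, with a control mean of 369 ± 104 CPM and a mutant mean of 6.21 ± 5.02 CPM (edgeR adjusted p = 8.91e-06; the log2 fold change was -6.76 when DHR39 replicate 2 was left out). Jon99Cii fell by 2.91 ± 0.30 and Jon99Ciii fell by 3.05 ± 0.27. Their profiles over the 8 libraries were the closest of any in the family, with a mean absolute difference of 0.0802 on the log2 scale. Jonah genes are related copies, reads may be split between close ones, and their separate values are uncertain to that extent.

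Neighbours within a cluster could stand apart. At 65A, Jon65Ai fell by 2.94 ± 0.31 while Jon65Aii, 277 bp away on the other strand, went from 41.3 ± 14.5 to 28.1 ± 11.5 CPM and did not pass (-0.55 ± 0.32 on the log2 scale; edgeR adjusted p = 0.308). At the last locus Jon99Fii fell by 1.08 ± 0.23, while Jon99Fi fell by 2.63 ± 0.38. Both contrasts were picked after their values were seen and were not tested. Summed over a locus, DHR39 kept 4.87% of the control level over the Jon25B genes, 13.1% over the Jon99C genes, 30.6% for Jon44E, 34.1% for Jon74E, 35.6% over the Jon65A genes, 38.2% over the Jon99F genes and 68.9% over the Jon66C pair, the last on few counts.

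**Figure D4:**
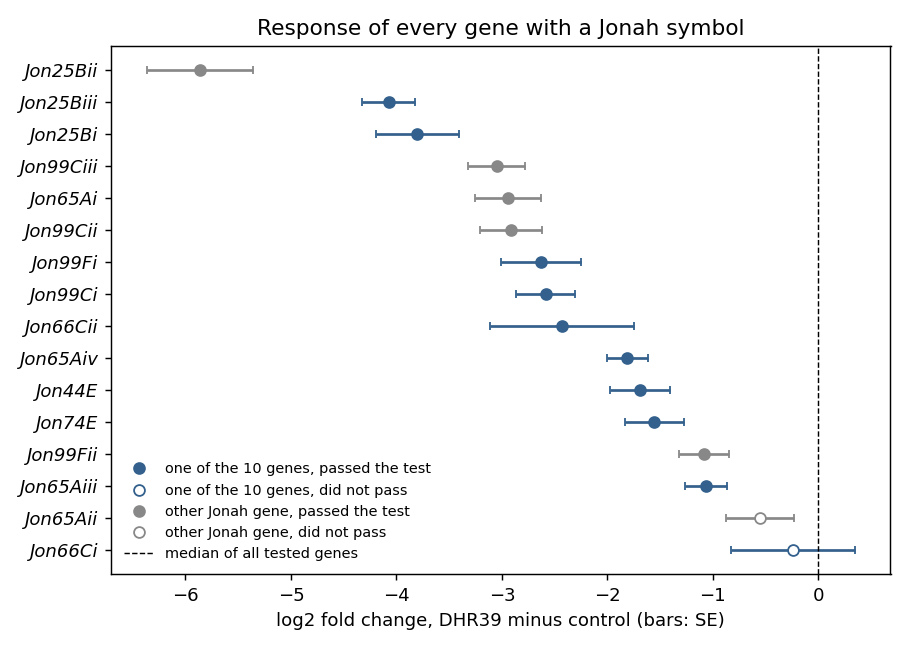
Log2 fold change, DHR39 minus control, of all 16 genes with a Jonah symbol, with SE bars; blue points are the 10 genes described, grey points the other 6, and open points did not pass the test. The 25B genes lie at the low end, from -5.86 to -3.80, and the dashed line marks the median of all tested genes.

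Genes next to the clusters were examined after the Jonah values were known. Of 14 tested genes that flank the 7 loci, 3 fell and 11 did not pass the test, with a median log2 fold change of -0.082. Among all tested genes 10.7% fell. Beside the 25B cluster, jet, 157 bp away, stood at 0.23 ± 0.11 (edgeR adjusted p = 0.19) and Marcal1, 365 bp away on the far side, at 0.25 ± 0.099 (0.108). CG7542, 699 bp from Jon74E, went from 196 to 98 CPM and passed the test. CG6462, 967 bp from Jon65Aiv, fell by 2.39 ± 0.52 from a low 1.06 CPM, and Acsl, 8426 bp from Jon44E, fell by 0.33 ± 0.10.

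Other serine proteases of the midgut formed a mixed group. Of 14 tested genes among 17 listed, 7 fell, 2 rose and 5 were not called, with a median log2 fold change of -0.50. The shares over all tested genes were 10.7% lower and 6.58% higher. Among them yip7, a serine protease gene on 3L, fell by 1.42 ± 0.17, with means of 2649 ± 496 and 989 ± 188 CPM. Ser8 fell by 3.10 ± 0.22 and thetaTry by 1.62 ± 0.21. The abundant trypsin gene alphaTry had means of 1808 ± 181 and 1037 ± 113 CPM and fell by 0.80 ± 0.11 (edgeR adjusted p = 0.000296). lambdaTry and kappaTry did not pass, at log2 fold changes of 0.13 ± 0.11 and -0.14 ± 0.15.

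The rises were in 2 trypsin genes that controls hardly expressed, and both were tested only through the DHR39 libraries, where they are high. betaTry went from 0.382 ± 0.199 CPM to 902 ± 184 CPM, while epsilonTry, without a count in any control, reached 44.5 ± 4.13 CPM in DHR39. With the 5 controls set to a joint floor of 3 counts this is at least 1296-fold higher. These 2 genes and alphaTry belong to a cluster of like copies. Reads may be split between them, so the fall of alphaTry is uncertain to that extent as well.

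Among 28 tested genes of other digestive enzymes there were 14 that fell, 2 that rose and 12 without a call (median log2 fold change -0.87). The lysosomal-type alpha-mannosidase genes LManIV and LManIII fell by 3.30 ± 0.17 and 2.6 ± 0.16, LManVI fell by 1.70 ± 0.15, and the lysozyme gene LysE fell by 1.56 ± 0.14. Mal-A1, an abundant maltase gene, had means of 1347 ± 373 and 1223 ± 189 CPM and did not pass (-0.14 ± 0.20 on the log2 scale; edgeR adjusted p = 0.723). Of 7 tested genes of mucins and the peritrophic matrix, the lining between food and epithelium, 1 fell, 1 rose and 5 did not pass. Beside both lists, 10.7% of all tested genes were lower and 6.58% higher. Mur18B fell by 0.90 ± 0.20, Peritrophin-15a rose by 0.66 ± 0.19 (edgeR adjusted p = 0.0329; 0.0567 in the block fit of paired replicates, and 0.0643 to 0.145 without control replicate 2 or 5 or DHR39 replicate 2 or 3), and Muc68D stood at -0.21 ± 0.10.

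Markers of midgut cells were set beside these falls. Of 5 enterocyte markers, 3 rose, 1 (alphaTry) fell and 1 did not pass, where 6.58% of all tested genes rose and 10.7% fell. The summed level of the 5 markers was 1773 to 2211 CPM in controls and 2006 to 2545 CPM in DHR39. No sum was at 0 in either group. One of the rises is betaTry, tested only through DHR39. Without it the sum of the other 4 was 1773 to 2210 CPM in controls and 1209 to 1454 CPM in DHR39. Of that sum alphaTry made up 1808 ± 181 and 1037 ± 113 CPM on average. The betaTry left out of it held 0.382 ± 0.199 and 902 ± 184 CPM. Reads may be split between these like copies, so the lower sum without betaTry is uncertain to that extent. Another of the rises is nub, whose call ended without control replicate 5 or any one DHR39 library. Myo31DF, a brush border myosin, had means of 131 ± 9.26 and 198 ± 12.2 CPM and rose by 0.60 ± 0.084 (edgeR adjusted p = 0.000412). The midgut gene mex1 had means of 36.5 ± 6.93 and 40.5 ± 1.71 CPM and did not pass (0.15 ± 0.14 on the log2 scale; edgeR adjusted p = 0.556). Some of these genes are also used outside the gut, and whole flies were sequenced.

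Of 3 copper cell markers and 3 markers of stem cells and enteroblasts, edgeR called 0, where 17.3% of all tested genes were called. Their sums overlapped between the groups. The copper cell sum was 48 to 62 CPM in controls against 53.5 to 58.2 CPM. For stem cells and enteroblasts it was 35.1 to 42.4 against 31.7 to 38.7 CPM. Of 6 enteroendocrine markers, which brain neurons also express, 2 fell, and the sum was 181 to 220 CPM in controls and 153 to 177 CPM in DHR39. Of 3 visceral muscle markers 1 fell, the muscle myosin gene Mhc, which other muscles also express, and the sum was 2649 to 3173 CPM in controls against 1864 to 2166 CPM. Of 4 tested markers of fat body and yolk 1 fell, Lsp2, although its groups overlapped. That sum was spread widely in controls, at 15.3 to 330 CPM against 11 to 23.7 CPM. The part of cell composition in the Jonah result was not tested.

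Of 11 transcription factor genes with known roles in midgut regions, 3 fell, 1 rose and 7 did not pass, and none fell 2-fold. Over all tested genes 10.7% were lower, 5.03% by at least 2-fold, and 6.58% were higher. odd fell by 0.96 ± 0.17, vnd by 0.48 ± 0.11 and exex by 0.54 ± 0.14 (edgeR adjusted p = 0.0164; 0.0695 in the block fit). Without DHR39 replicate 3 the calls of vnd and exex ended (edgeR adjusted p = 0.0504 and 0.0672), as did that of exex without DHR39 replicate 1 (0.071). The enterocyte factor gene nub rose by 0.48 ± 0.13 (edgeR adjusted p = 0.0277, and 0.0519 to 0.124 without control replicate 5 or any one DHR39 library), and Hnf4 stood at -0.047 ± 0.099.

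Sugar and fed state are known to set digestive enzyme transcription in flies, through a TGF-beta pathway, the sugar-responsive factor genes sug and Mondo, and insulin. Of 16 genes of these pathways edgeR called 0, where 17.3% of all tested genes were called, and 3 had an unadjusted p under 0.05. DESeq2 and limma voom also called 0. Library totals alone, or totals that left out the 50 most abundant genes, gave 2 higher. The block fit gave 1 higher, as did leaving out control replicate 1, 2 or 3 or DHR39 replicate 1. Thor, a translation repressor gene induced on starvation, had means of 318 ± 102 and 499 ± 18.1 CPM, 0.65 ± 0.23 on the log2 scale (edgeR adjusted p = 0.0808). It passed in the block fit (0.0009), with library totals alone (0.0278), with totals that left out the 50 most abundant genes (0.0422), and without control replicate 1 (0.0362) or 2 (0.0134). The block fit too takes its difference without control replicates 1 and 2, which have no partner.

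**Figure D5:**
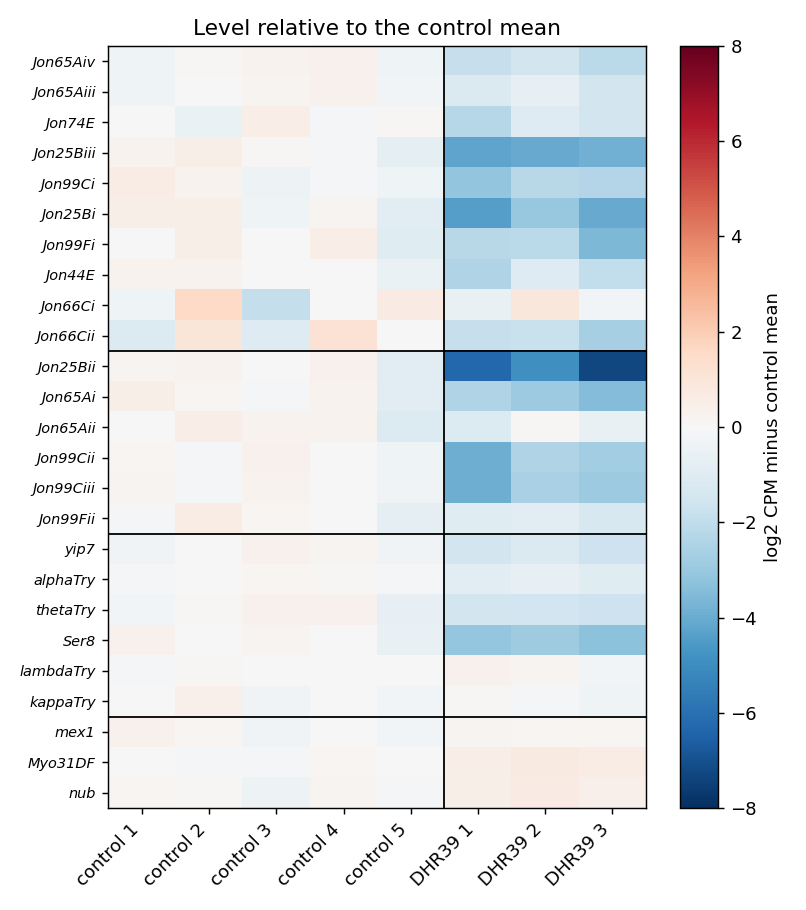
Log2 CPM minus the control mean in each library (columns) for the 10 Jonah genes, the other 6 Jonah genes, 6 other serine proteases and 3 of the 5 enterocyte markers, separated by lines. The enterocyte marker alphaTry, which fell, is shown among the serine proteases. All DHR39 values lie below the control mean for the Jonah genes except Jon66Ci and Jon65Aii. Their blue is pale for Jon65Aiii and Jon99Fii, at -0.63 and -0.87 in DHR39 replicate 2. The DHR39 columns of mex1, Myo31DF and nub are near white or a similarly pale red. betaTry and epsilonTry are left out because controls hardly hold them.

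The genes outside the family whose library values ran closest to those of the most abundant member, Jon65Aiv, were found among 9074 tested genes of at least 10 CPM, by the mean absolute difference over 8 libraries of log2 levels relative to the control mean. The closest was CG12374, at a difference of 0.144, with 3416 ± 958 CPM in controls and 1007 ± 236 CPM in DHR39. CG32201, Sfp84E, nompB, CG34041 and CG7231 followed, at differences of 0.158 to 0.186. These were picked as the closest of all candidates. Within the family, Jon65Aiii was closest to Jon65Aiv, at 0.306.

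The authors' deposited table for DHR39, identified by its own column of gene sets since its sheet name does not name the line, marks 9 of the 10 genes as lower and not Jon66Ci. The log2 fold changes there are smaller in size, for example -1.59 for Jon25Bi, -2.90 for Jon25Biii and -1.66 for Jon65Aiv. That table rests at least in part on these libraries, so it is no independent check, and the cause of the smaller values was not tested.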

How the data were processed

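Per the labels' protocols, stranded paired-end libraries were prepared from the poly(A) RNA of whole flies. The submitters' processing notes name STAR 2.6.1b, cutadapt 1.16, DESeq2 (1.20.0, 1.22.2), featureCounts 1.6.3 and the builds dm6 and BDGP6. The authors' deposited raw counts per gene were the starting point (14865 genes). The deposited sample sheet gives size factors, a ratio per library, and replicate names; only the names were used. Log2 fold changes and adjusted p-values of the authors come from their deposited comparison table.

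Low genes were removed by filterByExpr (default settings), and the rest were scaled by TMM and tested with edgeR 4.0.16 in R 4.3.3 (quasi-likelihood, 8 libraries, no covariate), adjusted over all 13506 genes. Each SE was the absolute log2 fold change over the square root of F. Neighbour ratios had 0.5 counts added and were tested by exact permutation. Positions and exon lengths came from Ensembl release 115 of BDGP6. The 10 genes and all lists were chosen with earlier results of these data known, and named genes are the 10, other Jonah symbols, the 6 nearest profiles, and per list those of smallest p or, if uncalled, of highest CPM. In single libraries 3 counts correspond to 0.142 to 0.178 CPM, counting error only.

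Replicates differed by more than sampling noise (chi-square per degree of freedom 17 to 42.9). The labels do not state separate cultures, so a p-value reflects only the spread among these libraries, possibly technical. Replicate names join each DHR39 library to 1 control, with deviations that correlated across genes at 0.187, 0.105 and 0.161. All exceed 0.1, yet the main edgeR test and the ratio permutations over all 8 libraries left this pairing out, so their p-values ignore it. The later comparison of ratios within pairs used it. So did an alternative fit, blocked by replicate name. Control replicates 1 and 2 share a name with no other library, so that fit takes the difference from the 3 pairs alone. Its results mix the pairing with the loss of these controls. Others were library totals, RLE, totals without the 50 most abundant genes, no filter, DESeq2 1.42.0, limma 3.58.1 voom, a robust fit and leaving out each library.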

Additional observations from a re-analysis of the deposited data

How the results depend on the processing

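Of the 10 genes, 8 or 9 were called lower under each of the 16 alternatives, and Jon66Cii was the one lost. The 8 genes other than Jon66Ci and Jon66Cii kept their direction and their call under all of them. Jon66Cii was not called with limma voom (-2.09), and its log2 fold changes without 1 library ran from -2.64 to -2.20, where it could be fitted. Jon66Ci, not called, changed sign with limma voom (0.066), with the replicate block (0.32), and without single libraries, in a range of -0.83 to 0.32. Without 1 library the ratio differences ran from -0.18 to 0.40 for Jon25Bi to Jon25Biii, 0.67 to 0.76 for Jon65Aiii to Jon65Aiv and 1.81 to 2.55 for Jon66Ci to Jon66Cii. With 2 DHR39 libraries 21 divisions allow an exact p of 0.0476 at best, 0.0714 adjusted, so no ratio could pass. Within the 3 pairs of libraries (replicate block, added after seeing the data) the mean differences were 0.267, 0.686 and 2.56 in that order, each with an exact p of 0.25, the smallest possible. Over all tested genes 2333 were called, 1444 lower and 889 higher; the higher count was 1997 with library totals alone, 1479 when totals left out the 50 most abundant genes, and 553 to 955 without 1 library (553 without DHR39 replicate 3). Other genes that changed sign, all uncalled, were kappaTry (0.00835 with library totals, 0.0314 with the block), Mal-A1 (0.0098 and 0.166) and Hnf4 (0.097 and 0.00882, 0.0488 when totals left out those 50 genes, and -0.113 to 0.0204 without 1 library). The replicate block, which takes its difference from the 3 pairs without control replicates 1 and 2, changed no call of a fold change among the 16 Jonah genes. Jon66Cii had only 2 to 38 counts per library; Jon66Ci had 12 to 148, with a coefficient of variation of 80.3% in controls and 57.5% in DHR39.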
